A study of Mus musculus with 6 samples.

Results

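These results describe the circRNAs that were detected only on day 8 (D8) of white adipogenesis in cultured mouse cells. Each was chosen by its read counts: it had 2 or more reads in both D8 libraries, but not in both libraries of day 0 (D0) and not in both libraries of day 4 (D4). The rule found 658 of 3662 circRNAs, or 18% of the table and 27.9% of the 2362 circRNAs detected on D8. The same rule found 576 circRNAs for D0 only and 481 for D4 only, and 1012 were detected at all 3 stages. With a detection limit of equal circCPM at every stage, the counts were 391 for D8 only, 620 for D0 only and 434 for D4 only. Such a limit allows for the greater number of circRNA reads on D8. The D8 only class thus went from the largest to the smallest of these classes. The counts of all 6 libraries were thus used in the choice, and the difference between D8 and the earlier days is described here and not tested as a finding.

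A circRNA forms by back-splicing, in which the splice donor at the end of an exon is joined back to an acceptor that lies upstream of it. The product has no free end, so it withstands the exonuclease RNase R, and 1 pre-mRNA can give several circles that differ in the joined exons. Introns next to the joined exons can assist the reaction when they hold inverted repeats. In white adipogenesis, stromal precursors take on the enzymes of lipid synthesis, fatty acid uptake and lipolysis under the control of PPARγ and C/EBP transcription factors.

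The cells were the stromal vascular fraction (SVF) of the inguinal fat pad of female mice at 6 weeks of age, of strain C57BL/6 in the labels and C57BL/6J in the methods, and the labels name no transgene or deletion. Such a fraction can hold endothelial, immune and nerve-associated cells beside the precursors, although the labels name white adipose preadipocytes in every sample. D0 cells were proliferating, D4 cells had received insulin, dexamethasone and 3-isobutyl-methylxanthine for 4 days, and D8 cells had then received insulin and triiodothyronine (T3) for another 4 days. There were 2 biological replicates per stage, and whether each was a pool of mice was not given in the sources used here. All RNA was depleted of rRNA and of linear RNA, so a change in the circle and a change in the recovery of its RNA cannot be told apart, nor can fewer cells and less RNA per cell.

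Levels are given in reads that cross the back-splice junction and in circCPM, which scales a library to counts per 1000000 of its circRNA reads. Such reads numbered 30110 and 32310 in the D0 libraries, 43069 and 41658 in those of D4 and 45371 and 50672 in those of D8. D8 thus had the most circRNA reads, and the sequencing depth behind these totals was not examined. A single read equals 33.2 circCPM in the smallest library and 19.7 in the largest. No value in the table is exactly 1 read, so a value of 0 may stand for a single read, and folds are not computed where both libraries of a stage are at 0.

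Markers of the labelled cells were thinly covered by circRNAs. Of 10 fat cell markers, Lipe and Pparg had circRNAs, 6 in all, of which 4 were detected only on D8. Their summed level was 0 in both D0 libraries, 302 and 432 circCPM on D4 and 727 and 691 on D8. No circRNA of Adipoq, Plin1, Fabp4 or Cidec was listed. Of the 10 stromal markers Pdgfra alone had a circRNA, at 266 and 310 circCPM on D0 and 88.2 and 98.7 on D8. None of the 10 endothelial, 10 pericyte or 10 skeletal muscle markers had a circRNA. Of the 10 mammary epithelial markers Kit had 1, listed on D4 alone with 4 and 4 reads. Of the 10 leukocyte markers Adgre1 had 1, a day 8 only circRNA with 10 and 4 reads, and of the 10 Schwann cell markers Scn7a had 2, which together had 705 and 1110 circCPM on D8 and 0 and 155 on D0. The part of such other cells in the day 8 only circRNAs was not tested.

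The back-splice junction is what identifies a circRNA in the reads, and 5 junctions of Me1 show how circles of the same gene differ. Each line gives 50 bases, the last 25 of the circle's final exon followed by the first 25 of its opening exon, 5′ to 3′ on the strand of the gene. The bases were read from the NCBIM37 (mm9) genome, and the capitals mark 2 bases on either side of the joint. Me1 encodes the cytosolic malic enzyme, which makes NADPH for fatty acid synthesis. Its 5 circles are built from 3 acceptors and 3 donors.
Me1, exons 2 to 6, chr9:86539918-86573881, minus strand: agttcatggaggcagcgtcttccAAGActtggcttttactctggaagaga
Me1, exons 4 to 6, chr9:86539918-86548325, minus strand: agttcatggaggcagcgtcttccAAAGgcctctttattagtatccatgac
Me1, exons 7 to 9, chr9:86505460-86513441, minus strand: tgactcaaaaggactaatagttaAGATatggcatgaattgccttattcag
Me1, exons 2 to 9, chr9:86505460-86573881, minus strand: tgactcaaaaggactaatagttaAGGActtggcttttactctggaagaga
Me1, exons 2 to 3, chr9:86571793-86573881, minus strand: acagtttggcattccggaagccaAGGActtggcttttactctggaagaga
The first pair shares its left 25 bases, the donor of exon 6. The circles that open with exon 2 share their right 25 bases. Exons are numbered along the annotated transcript that has most exons inside the circle, and all ends of these circles lie at the ends of coding exons.

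A second set shows junctions of circles from other genes, whose values follow. These circles, except those of Soat2 and Acss3, had no read in any D0 or D4 library.
Nox4, exons 7 to 14, chr7:94462574-94487527, plus strand: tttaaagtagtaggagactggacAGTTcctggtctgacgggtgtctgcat
Soat2, exons 7 to 10, chr15:101988043-101989274, plus strand: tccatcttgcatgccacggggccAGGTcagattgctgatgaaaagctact
Acss3, exons 2 to 7, chr10:106460710-106522007, minus strand: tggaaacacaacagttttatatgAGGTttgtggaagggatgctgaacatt
Cd36, exons 9 to 11, chr5:17302814-17317045, minus strand: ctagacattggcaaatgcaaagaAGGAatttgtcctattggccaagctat
Cd36, exons 5 to 9, chr5:17316999-17326418, minus strand: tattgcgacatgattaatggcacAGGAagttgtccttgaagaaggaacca
Lipe, exons 3 to 6, chr7:26169392-26170546, minus strand: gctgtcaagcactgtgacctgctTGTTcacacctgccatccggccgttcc
Mlxipl, exons 7 to 8, chr5:135599520-135599887, plus strand: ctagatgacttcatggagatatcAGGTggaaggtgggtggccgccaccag
Outside the joined ends, the genome reads AG before the acceptor and GT after the donor in each of these 12 circles, as it did in 655 of the 658 (99.5%). The Cd36 circles overlap in exon 9, which both hold.

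Most day 8 only circRNAs were rare. The median member had 5 reads in each D8 library and a D8 mean of 112 circCPM, with a range from 41.8 to 1270. Only 35 had 10 or more reads in both D8 libraries, 4 had 20 or more in both, and 265 (40.3%) had a D8 mean under 5 reads. As a class they held 4001 and 4327 reads on D8, which is 8.82% and 8.54% of these libraries. On D0 they held 2.67% and 2.18% of the reads and on D4 2.31% and 1.39%, so these circRNAs were not absent from the earlier days.

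Reads at the earlier days fell in single libraries, as the rule requires. Of the 658 circRNAs, 201 (30.5%) had no read in any of the 4 early libraries, 284 (43.2%) had reads in 1 of them, and 173 (26.3%) had reads in 1 library of D0 and 1 of D4. The shares without any read at another stage were 34.4% for the D0 only and 30.1% for the D4 only circRNAs. In 320 circRNAs (48.6%) both D8 libraries lay above the 4 early ones in circCPM, and in the other 338 an early library reached the lower D8 library. The mean circCPM was higher on D0 than on D8 in 52 of the 658 and higher on D4 than on D8 in 33.

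The D8 replicates ranked the circRNAs loosely. The Spearman correlation between both D8 libraries was 0.22 over the 658 circRNAs and 0.777 over the 1012 of all 3 stages, as a description across circRNAs that share the same libraries. The rule sets a floor of 2 reads in both libraries, and most values lie close to it. In 235 circRNAs (35.7%) the D8 libraries differed 2-fold or more, and in 38 they differed 4-fold or more.

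**Figure D1:**
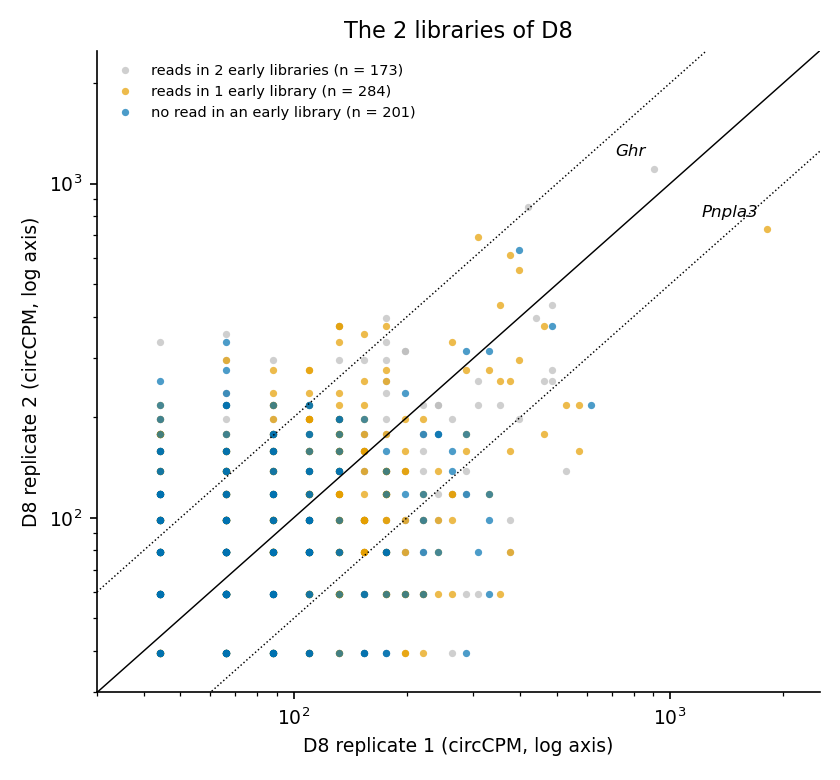
Each point is 1 of the 658 day 8 only circRNAs, with circCPM in D8 replicate 1 on the x axis and replicate 2 on the y axis, both on log axes. The solid line marks equal values and the dotted lines a 2-fold difference, which 235 circRNAs reach or pass, and colours give the number of D0 and D4 libraries with reads.

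Just inside the rule lay 12 circRNAs with exactly 2 reads in each D8 library, among them 1 circle each of Adamts6, Tgfbr3 and Nisch. The Nisch circle also had 7 reads in D0 replicate 1. Just outside lay 11 circRNAs that missed the rule through exactly 2 and 2 reads at 1 other stage. The circle of Cmah had 2 and 2 reads on D0 and 7 and 13 on D8, and that of Lrsam1 had 2 and 2 on D4 and 8 and 13 on D8. Both are higher on D8 than most of the circRNAs inside.

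The highest day 8 only circRNA came from Pnpla3, which encodes a lipid droplet protein with lipase and acyltransferase activity. It had 82 and 37 reads on D8, 7 and 0 on D4 and none on D0, and its D8 mean was 1270 circCPM ± 762 (SD, n = 2). The circle spans chr15:84001512-84016511 on the plus strand, and 1 of its ends lies at an annotated exon end. Both D8 libraries lay well above the rest, but they differed more than 2-fold from each other.

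The next was a circle of exons 2 to 8 of Ghr, the growth hormone receptor. It had 41 and 56 reads on D8, 0 and 16 on D4 and 0 and 5 on D0, with a D8 mean of 1000 circCPM ± 142 (SD, n = 2). It spans 130035 bases, the longest of the 658, at chr15:3277974-3408008 on the minus strand. The shortest, 141 bases of exon 7 of the splicing factor gene Sf3a2, had 2 and 3 reads on D8.

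Nox4, Soat2 and Dram1 were also among the genes of the 10 highest. The Nox4 circle had 18 and 32 reads on D8 and none elsewhere, and its gene encodes an NADPH oxidase that produces hydrogen peroxide. Soat2, which esterifies cholesterol, had 18 and 28 reads on D8, 0 and 8 on D4 and none on D0. Dram1, a lysosomal membrane protein linked to autophagy, had 17 and 31 reads on D8 and 0 and 6 on D4. In these circles the D8 libraries did not overlap with the early ones.

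Scn7a encodes a sodium channel and is also on the Schwann cell list. Its circle had 14 and 35 reads on D8, 0 and 6 on D4 and none on D0. The circle of Me1 exons 2 to 6 was listed on D8 alone, with 22 and 19 reads. Map2k5, the kinase MEK5, gave a circle with 21 and 19 reads on D8 and 7 and 0 on D0.

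Not all of the 10 highest were far above the early libraries. Fndc3a gave a circle of exons 2 and 3 with 19 and 43 reads on D8, 12 and 0 on D4 and 3 and 0 on D0. The circle of Nbeal1 had 22 and 22 reads on D8, 0 and 11 on D4 and 0 and 9 on D0. Both were chosen because 1 library of each early day stood at 0.

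Beyond Nox4 and Me1, the highest circRNAs without any early read came from Itgbl1, Auh and Lama2. Itgbl1, an integrin beta-like protein, had 28 and 11 reads. Auh, a mitochondrial hydratase of leucine breakdown that also binds AU-rich RNA, had 15 and 16 reads, a D8 mean of 323 circCPM ± 10.5 (SD, n = 2). Lama2, the laminin alpha 2 chain of basement membranes, had 13 and 16. The Auh and Lama2 values were close between replicates, and those of Itgbl1 differed more than 2-fold.

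**Figure D2:**
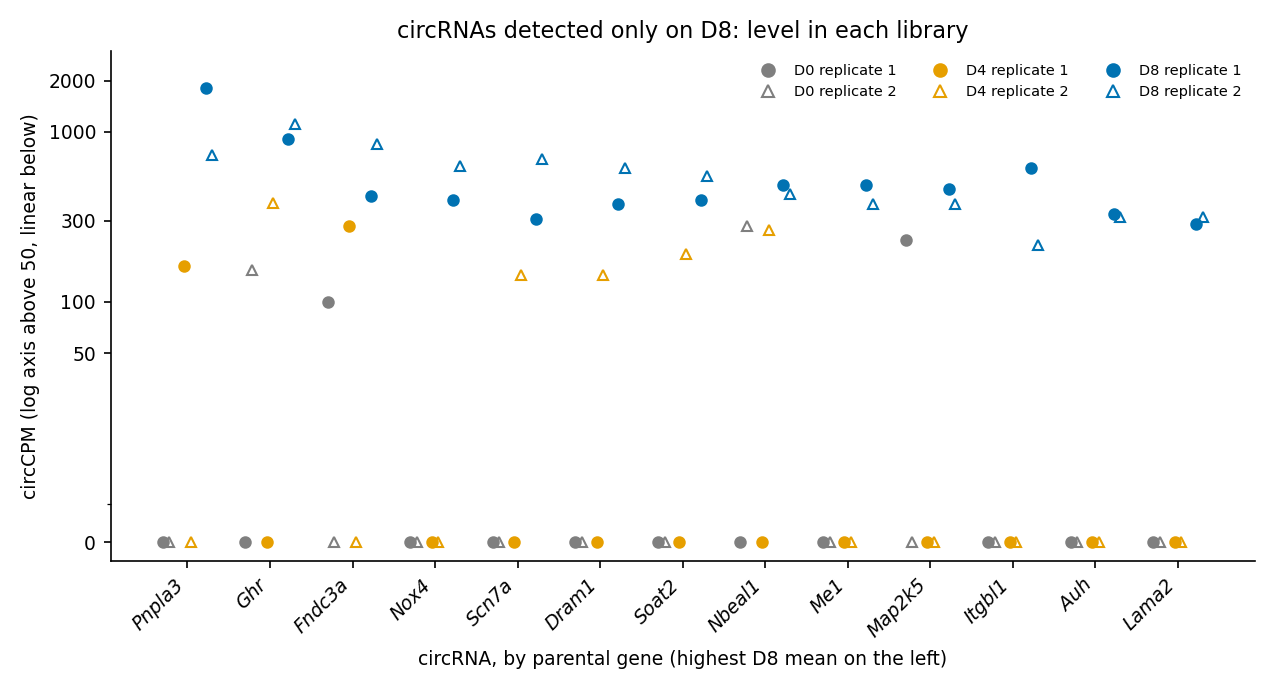
Level in each of the 6 libraries, in circCPM (log axis above 50, linear below), of the 10 highest day 8 only circRNAs and the 5 highest without early reads, which share Nox4 and Me1. Each symbol is 1 library, and both D8 symbols lie above the 4 others in every circRNA shown.

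Counts this low left little room for a test. Of the 658 circRNAs, 40 passed edgeR's filter on low counts and 618 did not. With edgeR's quasi-likelihood test, 16 of the 1407 circRNAs tested (1.14%) were called across the 3 stages at an adjusted p under 0.05, and 0 of these were day 8 only. At an unadjusted p under 0.05 there were 14 among the 40 and 295 among the 1407. Without the filter on low counts, edgeR called 95 of the 658 across the 3 stages, and 396 of all 3662. DESeq2 called 78 of the 1407 and 2 of the 40, Pnpla3 (adjusted p = 0.00351) and Nox4 (adjusted p = 0.0261), whose edgeR adjusted p values were 0.0688 and 0.0747. Between D8 and D0 edgeR called 17 of 1407 as higher on D8 (1.21%) and again 0 of the 40, with 15 at an unadjusted p under 0.05 where all 1407 gave 265 in either direction, and DESeq2 called 34 of the 1407 as higher, 16 as lower and 1 of the 40, Pnpla3, as higher (adjusted p = 0.00635). Between D8 and D4 edgeR called 0 of 1407 as higher (0%) and 0 of the 40, with 11 unadjusted where all 1407 gave 172 in either direction, and DESeq2 called 3 of the 1407 as higher, 3 as lower and 0 of the 40. Since the rule used the same reads, nothing is read from these counts about the class.

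Of the 7 pathway gene lists reported, which leave out the marker lists above, fat cell metabolism had the highest share of day 8 only circRNAs. Of 118 genes on this list 24 had a circRNA, 55 circRNAs in all, and 22 of these (40.0%, Wilson 95% interval 28.1 to 53.2) were detected only on D8. In the whole table the share was 18%. From the same list 2 circRNAs were detected only on D0 and 8 only on D4. The 22 came from 13 genes and are 3.34% of the day 8 only circRNAs, against 0.347% for D0 only, 1.66% for D4 only and 0.988% for all 3 stages. Together they had 269 and 239 reads on D8, 18 and 21 on D4 and 0 and 10 on D0.

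With detection at equal circCPM, 15 of the 391 circRNAs that were then day 8 only came from this list, beside 2 of 620 for D0 only and 7 of 434 for D4 only. Of the 201 circRNAs without any early read, 13 were from this list (6.47%). Circles of 1 gene share its transcription, so the interval, which counts each circle as independent, is too narrow.

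**Figure D3:**
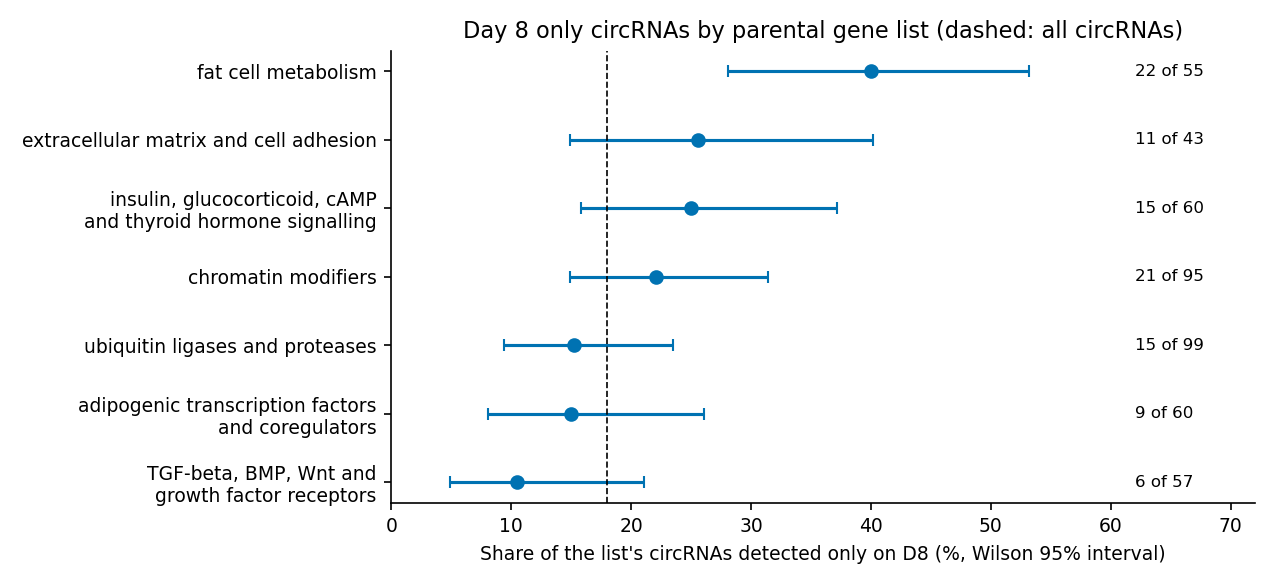
Share of the circRNAs of each pathway gene list that were detected only on D8, in percent, with Wilson 95% intervals and the counts on the right. The dashed line marks the 18% of all 3662 circRNAs. Shares run from 10.5% to 40.0%, and intervals are a description, since the lists were chosen with earlier results known and circles of 1 gene are not independent.

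Within the list, lipid uptake and lipolysis were represented by Cd36, Lpl and Lipe. Cd36, a fatty acid transporter of the cell surface, gave the circles of exons 9 to 11 with 15 and 6 reads on D8 and of exons 5 to 9 with 5 and 11, printed above. Lpl, the lipase that frees fatty acids from lipoproteins, gave a circle of exons 2 to 6 with 3 and 17 reads. Lipe, the hormone-sensitive lipase, had 9 and 6. None of these circles had a read on D0 or D4, although in Lpl and in the first Cd36 circle the D8 replicates were more than 2-fold apart.

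Lipid synthesis was represented by Me1, Acaca, Lpin1 and the transcription factor gene Mlxipl. The 5 circles of Me1 together had 57 and 52 reads on D8, 0 and 2 on D4 and none on D0, and Me1 had no other circRNA in the table. Acaca, the first committed enzyme of fatty acid synthesis, gave a circle of 16 exons with 3 and 8 reads on D8 alone. Lpin1, a phosphatidate phosphatase, had 2 and 5 reads on D8 and 0 and 3 on D4. Mlxipl encodes ChREBP, which activates lipogenic genes in response to glucose, and its circle of 2 exons and 283 bases after splicing had 10 and 6 reads on D8 alone. Of these genes Me1 was the one with several day 8 only circles and the most D8 reads in such circles.

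Genes of amino acid, acyl-CoA and pyruvate metabolism formed another part. Acss3, a mitochondrial short-chain acyl-CoA synthetase, gave 3 circles, of which that of exons 2 to 7 had 18 and 15 reads on D8, 0 and 5 on D4 and none on D0. Bckdhb, a subunit of the branched-chain keto acid dehydrogenase, also gave 3, the highest with 7 and 18 reads on D8 and 8 and 0 on D4. Pcca, a subunit of propionyl-CoA carboxylase, had 8 and 14 reads on D8 and 0 and 3 on D4. The circle of Pdk1, a kinase that restrains pyruvate dehydrogenase, had 16 and 11 reads on D8, 0 and 8 on D4 and 0 and 7 on D0. For Bckdhb and Pdk1 an early library came near or above the lower D8 library.

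Hormone signalling genes gave 15 day 8 only circRNAs of 60 (25%, interval 15.8 to 37.2), from 6 genes. Ghr gave 5 of these. Pde8a, a cAMP phosphodiesterase, had 20 and 20 reads on D8 but also 9 and 0 on D4 and 11 and 0 on D0. Adipor2, an adiponectin receptor, gave 2 circles, 1 with 3 and 3 reads on D8, 2 and 0 on D4 and 4 and 0 on D0, and 1 with 2 and 3 on D8 alone. Tbc1d4, which controls GLUT4 transport downstream of insulin, had 3 and 8 reads on D8 alone, and the adenylate cyclase gene Adcy2 had 3 and 7 on D8, 0 and 4 on D4 and 0 and 3 on D0.

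Adipogenic transcription factors and coregulators gave 9 of 60 (15%, interval 8.1 to 26.1), a share close to that of the table. Pparg, the master regulator of fat cell formation, gave 3 circles with 8 and 17 reads on D8 together, 5 and 5 on D4 and none on D0. Its other 2 circRNAs together had 16 and 12 reads on D8, 8 and 13 on D4 and none on D0. Ncor1, a corepressor, had 8 and 6 reads on D8 alone, the coactivator gene Ncoa1 had 3 and 6, and the zinc finger gene Zbtb16 had 6 and 5. Foxo1, a target of insulin signalling, had 5 and 3 reads on D8 but also 2 and 0 on D4 and 4 and 0 on D0.

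Extracellular matrix and adhesion genes gave 11 of 43 (25.6%), with Lama2 as the highest and Fbn1, the fibrillin 1 gene, at 9 and 8 reads on D8 and 4 and 0 on D0. Chromatin modifiers gave 21 of 95 (22.1%), among them the histone demethylase gene Kdm5c with 11 and 11 reads on D8, 0 and 4 on D4 and 3 and 0 on D0. Ubiquitin ligases and proteases gave 15 of 99 (15.2%), with Ubr3 at 2 and 17 reads on D8 but also 0 and 5 on D4 and 0 and 10 on D0, and Usp54 at 6 and 10 on D8 and 4 and 0 on D4. Receptors of TGF-beta, BMP, Wnt and growth factors gave 6 of 57 (10.5%), among them Acvr1b at 8 and 6 on D8 and 0 and 6 on D4, and Tgfbr2 at 5 and 8 on D8 alone. Beside these shares, 544 of the 658 circRNAs belonged to none of the pathway lists examined.

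The 658 circRNAs came from 562 parental genes, and 1 had none. A single member came from 492 genes, 2 came from 52 and 3 or more from 18. In 271 genes, with 296 of the circRNAs, every circRNA of the table was day 8 only, as in Me1, Nisch, Sbf2 and Crebrf. The other 361 (54.9%) came from 291 genes that also gave a circRNA detected on D0 or D4.

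Some genes with several members used a splice site more than once, and others, such as Arhgap10 and Arfgef2, did not. In Ghr 3 of the 4 circles placed on exons open with exon 2 and end with exon 6, 7 or 8, at 13 and 9, 6 and 19 and 41 and 56 reads. In Acss3 the circles of exons 9 to 11 and 9 to 13 share the acceptor of exon 9, with 3 and 2 and 2 and 6 reads. All 3 circles of Fndc3a start at 1 acceptor, that of exon 2. Of the 658 circRNAs, 64 shared an end with another member, and 209 (31.8%, interval 28.3 to 35.4) shared an end with a circRNA detected on D0 or D4. An end in common with a circRNA of all 3 stages was found for 15.2% (12.7 to 18.1), against 17% of the D0 only (14.2 to 20.3) and 22.7% of the D4 only circRNAs (19.1 to 26.6).

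Beside Me1, Ghr, Acss3, Bckdhb, Pparg and Fndc3a, 11 more genes gave 3 or more day 8 only circRNAs, and in most of these the summed reads per gene were modest. Crebrf, a regulator of the stress factor CREB3, had 30 and 25 reads on D8 over 3 circles, 2 and 0 on D4 and 6 and 0 on D0. Arfgef2 and Sec31a both act in vesicle transport, and each gave 3 circles. Those of Arfgef2 had 25 and 16 reads on D8, 2 and 3 on D4 and 2 and 3 on D0. Those of Sec31a had 24 and 11 reads on D8. Sec31a also had 6 and 0 reads on D4 and 13 and 0 on D0, so D0 replicate 1 lay above D8 replicate 2. Nisch, which binds integrins and imidazoline ligands, had 21 and 18 reads on D8, 3 and 0 on D4 and 12 and 0 on D0.

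Sbf2, a phosphoinositide phosphatase relative, had 20 and 19 reads on D8, 0 and 7 on D4 and 4 and 0 on D0. The chromatin remodelling gene Arid1b had 15 and 17 on D8, 3 and 0 on D4 and 8 and 0 on D0, and the kinase gene Snrk had 11 and 20 on D8, 2 and 0 on D4 and 4 and 0 on D0. Dennd1b, an activator of Rab35, had 14 and 26 on D8 but 12 and 2 on D4 and 10 and 3 on D0. The RNA helicase gene Helz had 13 and 9 on D8 and 0 and 7 on D0. Tgfbr3, the betaglycan co-receptor, had 7 and 10 on D8, 4 and 3 on D4 and none on D0, and Arhgap10 had 25 and 25 on D8, 0 and 7 on D4 and 4 and 0 on D0. Among these 11 genes Tgfbr3 was the one without a D0 read in its day 8 only circles.

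**Figure D4:**
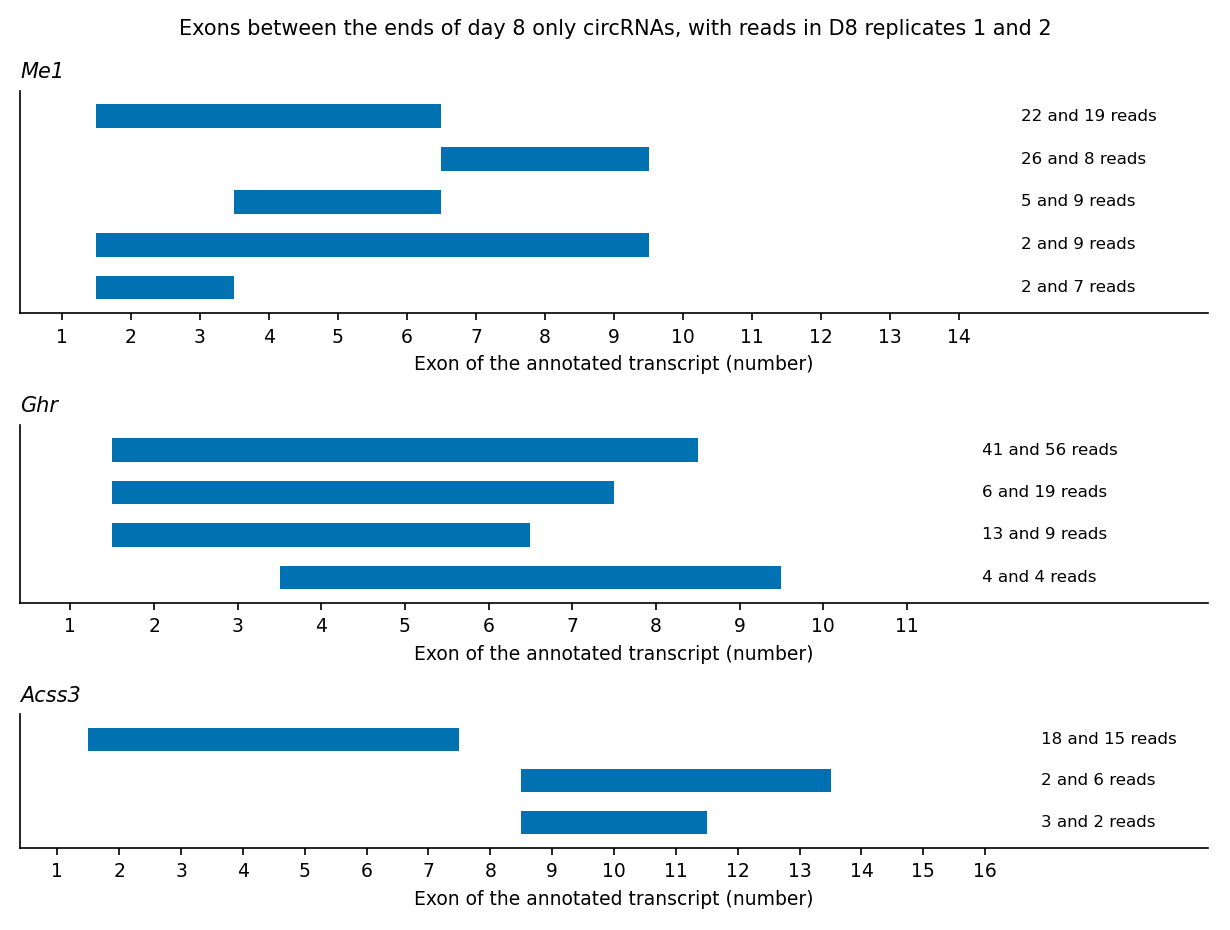
Bars span the exons (x axis, exon number in the annotated transcript) between the ends of the day 8 only circRNAs of Me1, Ghr and Acss3 that could be placed on exons, with reads in D8 replicates 1 and 2 on the right. Exon 2 opens 3 of the 5 Me1 circles and 3 of the 4 Ghr circles.

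Whether the parental genes also gave more of their other circRNAs on D8 was tested on reads that the members do not include. The reads of the circRNAs detected on D0 or D4 were summed per gene, and 207 of the genes with a member passed the filter among 1046 genes. These sums left out the day 8 only circRNAs but kept the D0 only ones, so they are not balanced between D8 and D0. The 207 genes are also part of the 1046. With edgeR's quasi-likelihood test between D8 and D0, 18 of the 207 (8.7%) were called in either direction, 15 of them as higher on D8. Of all 1046 genes tested, 64 (6.12%) were called in either direction, and 46 (4.4% of the 1046) as higher on D8. The sum was higher on D8 by fold change in 119 of the 207 (57.5%) and in 520 of the 1046 (49.7%). The count of 18 depended on single libraries. It was 10 without D0 replicate 1, 21 without D0 replicate 2, 5 without either D4 library, 6 without D8 replicate 1 and 8 without D8 replicate 2, where the counts over all genes tested were 31, 52, 13 and 14, 21 and 24 in the same order.

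The called genes included metabolic genes of the list. Other circRNAs of Acss3 were listed at 0 in both D0 libraries and had 2650 and 2260 circCPM on D4 and 3880 and 3550 on D8 (edgeR adjusted p = 0.000166). Those of Mlxipl were also at 0 on D0, with 232 and 168 circCPM on D4 and 948 and 1280 on D8 (edgeR adjusted p = 0.00391). Other circRNAs of Bckdhb rose from 1990 and 1450 circCPM on D0 to 5400 and 4120 on D8, a log2 fold change of 1.61 (SE 0.27, edgeR adjusted p = 0.0106). Other circRNAs of Bckdhb had 4810 and 4780 circCPM on D4, so in Bckdhb and Acss3 most of the difference was present by then, while those of Mlxipl lay lower on D4 than on D8.

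Among the regulators, other circRNAs of Tgfbr2, the type II TGF-beta receptor, rose from 99.6 and 217 circCPM on D0 to 1540 and 1760 on D8, with 2020 and 1900 on D4, a log2 fold change of 3.49 (SE 0.44, edgeR adjusted p = 0.00272). Those of Arhgap10, a gene with 4 members and 16 other circRNAs, reached 19800 and 21600 circCPM on D8 from 11000 and 11900 on D0, with 9450 and 9390 on D4. Their log2 fold change was 1.0 (SE 0.17, edgeR adjusted p = 0.0107). Those of Zbtb16 reached 56 and 86 reads on D8, after 51 and 38 on D4, from 2 and 0 on D0 (edgeR adjusted p = 0.00273).

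The other 3 called genes were lower on D8. Other circRNAs of Cacna1c, a calcium channel subunit, had 10400 and 13300 circCPM on D0, then 4340 and 3600 on D4 and 2780 and 3180 on D8, a log2 fold change of -1.84 (SE 0.24, edgeR adjusted p = 0.00272). Those of Mcph1 and Farp1 changed by -1.60 (SE 0.36) and -2.20 (SE 0.54), with edgeR adjusted p values of 0.0309 and 0.0426. Of the 9 genes named here for their other circRNAs, Acss3, Mlxipl, Tgfbr2, Zbtb16 and Cacna1c were called with any 1 library left out. Bckdhb was not called without either D4 library or D8 replicate 1, and Arhgap10 was not called without any 1 of the D4 and D8 libraries. Mcph1 was called only without D8 replicate 2 among these fits, and Farp1 in none of them nor without the filter on low counts.

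Most day 8 only circRNAs were circles of annotated exons. Annotated exon ends were found at both ends of 90.7% (88.3 to 92.7), and 94.7% were exonic, 5.17% intronic and 0.152% intergenic. The median circle spanned 6124 bases of genome (95% interval 5370 to 7067) and held 3 exons and 422 bases after splicing. The median span was 6831 bases for D0 only, 12152 (10371 to 13747) for D4 only and 7045 for all 3 stages. The day 8 only circles thus spanned less than those of D4 only, while their interval overlapped with those of the other classes. Exon 2 opened 25.7% of them (22.3 to 29.3), against 33.9% of D0 only (29.9 to 38.2), 30.3% of D4 only (26.2 to 34.8) and 42.8% of those of all 3 stages (39.7 to 46.0).

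The shorter of the introns next to a circle was itself shorter than in the other classes. This intron had a median of 3258 bases (95% interval 2937 to 3932) over the 592 day 8 only circRNAs with introns on both sides. It was 5184 bases (4686 to 6081) for D0 only, 6933 (5911 to 7747) for D4 only and 7797 (7200 to 8342) for all 3 stages. Introns under 1 kb were the shorter flank in 14.5% of the day 8 only circRNAs (11.9 to 17.6). The share was 9.24% for D0 only (7.0 to 12.1), whose interval overlapped with that of D8 only. It was 8.1% for D4 only (5.88 to 11.1) and 7.33% for all 3 stages (5.83 to 9.18). The upstream intron alone had medians of 5808, 10181, 12554 and 13798 bases in the same order of classes. The downstream intron had medians of 5330 (4774 to 6100), 6832 (5958 to 7790), 9170 and 10565 bases, so the intervals of D8 only and D0 only overlapped on that side. Intron length played no part in the choice of the circRNAs, and the intervals treat each circRNA as independent.

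The order was the same with 1 circRNA per parental gene, with medians of 3057 bases for D8 only, 5045 for D0 only, 6462 for D4 only and 7797 for all 3 stages. Among circRNAs in circBase they were 4187 bases (3012 to 4999), 6790 (5947 to 7749), 7798 and 8262. With detection at equal circCPM the D8 only median was 4037 bases (3245 to 4928) and that of D0 only 5160 (4650 to 5944), so these intervals overlapped. Among circRNAs absent from circBase they were 3009 bases (2594 to 3444) and 4147 (3153 to 4788), which also overlapped. These subsets were chosen after the data had been seen.

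**Figure D5:**
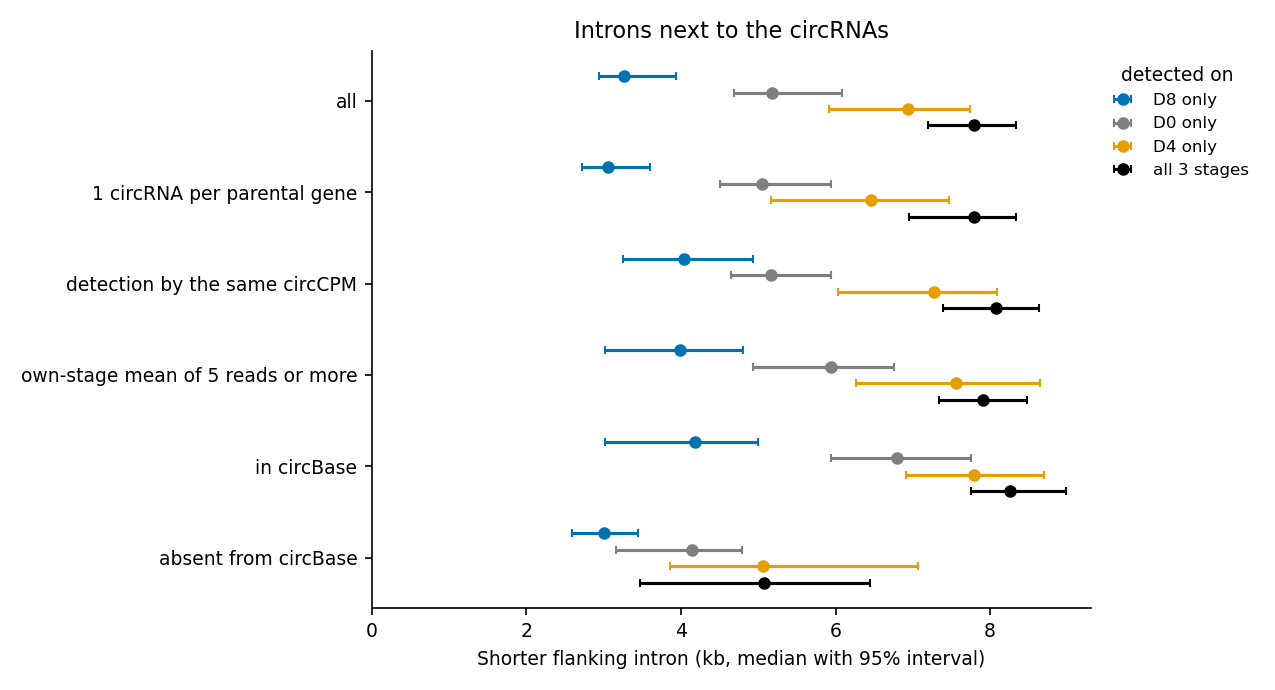
Median length of the shorter flanking intron in kb (x axis) with its 95% interval, for circRNAs detected only on D8, only on D0, only on D4 or at all 3 stages, in all circRNAs and in 5 subsets. The D8 only median is the lowest in each row, and its interval overlaps with that of D0 only at equal circCPM and among circRNAs absent from circBase.

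Between whole libraries, the median shorter flanking intron over the reads of circRNAs of all 3 stages was 9671 and 9617 bases on D8, 10579 and 10604 on D4 and 9457 and 9574 on D0. The D8 values lay above those of D0 and below those of D4. Over all circRNAs other than the day 8 only ones the medians were 8648 and 8679 bases on D8, between those of D0 and D4. With 2 libraries per stage, an exact permutation test of D8 against the other 4 cannot give a p under 0.0667, so no test result is given.

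Base composition and simple pairing of the flanks did not set the class apart. GC content had a median of 41.7% in the flanks and 47.7% in the exons, against 41.3% and 47.9% over the table. A run of 15 or more bases in 1 flank that could pair with the other flank, searched in 500 bases on either side, was found for 5.17% of the day 8 only circRNAs (3.72 to 7.13) and 5.02% of the table.

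Many of the day 8 only circRNAs had no circBase identifier, 341 of 658 (51.8%, interval 48.0 to 55.6). The share was close to it for D0 only (48.4%, 44.4 to 52.5) and D4 only (48.9%, 44.4 to 53.3), with overlapping intervals, and was 14.6% at all 3 stages. Of the day 8 only circRNAs it was 66.2% (59.4 to 72.4) of those with no early read, 50.0% of those with reads in 1 early library and 38.2% (31.2 to 45.6) of those with reads in 2. Those with no early read also had fewer reads on D8, a median of 9 in both libraries together against 12 with reads in 2 early libraries. Among circRNAs without a read at any other stage, the absent share was 57.1% (50.1 to 63.8) for D0 only and 64.1% (56.1 to 71.5) for D4 only, intervals that overlap with that of D8. The highest circRNA, of Pnpla3, is in circBase, and the second, of Ghr, is not.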

How the data were processed

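The authors used fastp 0.20.1 for trimming, BWA-MEM 0.7.17 for alignment to mm9 and CIRI2 for finding circRNAs. The submitters' processing notes also name FastQC 0.11.9 and HISAT2 2.2.0. The deposited values are raw read counts per back-splice junction and library, without normalization. A circRNA is in the table if both replicates of some stage had at least 2 reads of it, and 3662 were analysed here. Reads carry no molecular identifiers. Intervals of shares and medians treat each circRNA as an independent unit, and they include neither the error of the read counts nor the spread between replicates.

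circCPM was computed from the column totals, 30110 to 50672 reads per library. Ends were compared with GENCODE vM1 on NCBIM37, with positions counted from 1. Counts were tested in R 4.3.3 with edgeR 4.0.16 (TMM, filterByExpr with a minimum count of 10 and total of 15, quasi-likelihood test, Benjamini-Hochberg adjustment over all features tested), and with DESeq2 1.42.0 as an alternative. The fits were tested on simulated data. Shares have Wilson 95% intervals and medians have intervals from binomial order statistics, computed with scipy 1.17.1, pandas 2.3.3 and numpy 2.4.6 under Python 3.11.15, and figures were drawn with matplotlib 3.10.9. Symbols follow RefSeq.

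The circRNAs and gene lists were chosen with earlier results of these data known. The circRNAs named were the 10 with the highest D8 mean, those called across stages, the 5 highest without early reads, members of the metabolism, transcription factor and hormone lists, genes with 3 or more members, and the longest and shortest. A gene list and 2 genes that this rule names are not reported here. Cmah, Lrsam1 and genes of the other lists were named for their place in the counts. Alternatives were RLE factors, no filter, DESeq2, a replicate block, other detection minimums and each library left out.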

Additional observations from a re-analysis of the deposited data

How the results depend on the processing

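The number of day 8 only circRNAs depended on the rule of detection. It was 391 with a minimum in circCPM equal to 2 reads of the smallest library, of which 347 were among the 658. It was 201 both with reads in either replicate counted as detection and with no read allowed in an early library. It was 602 with 3 reads, of which 514 were among the 658, and 451 with 5 reads, of which 230 were among the 658. With 1 D0 or D4 library left out it was 459 to 544. Leaving out an early library could only lower the number. Leaving out a D8 library could not change it, since the table holds only circRNAs with reads in both replicates of some stage. Of the 22 fat cell metabolism circRNAs, 13 had no early read. Leaving out 1 D0 or D4 library, which could not raise this count, gave 17 to 22. With the replicate block, which the labels do not justify since same-numbered deviations correlated by 0.0352 to 0.0698, 0 members were called across stages, 0 between D8 and D0, 0 between D8 and D4, and 20 parental genes by their other circRNAs. Without a filter on low counts 95 of the 658 were called across stages, where 396 of all 3662 were. DESeq2 called 2 across stages, where it called 78 of all 1407, and 1 between D8 and D0, where it called 50 in either direction. Leaving out 1 library gave 0 to 1 across stages, 0 to 1 between D8 and D0 and 0 between D8 and D4. The parental genes ranged from 5 to 21. The causes of these shifts were not tested. The absent share in circBase was 66.2% without early reads. The median shorter flanking intron of the day 8 only circRNAs ranged from 2809 to 4187 bases over the subsets tried. Few reads per circRNA limit what a test of a single circRNA could show.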
